A study of Mus musculus with 8 samples.

Results

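The genes described here are 10 transcripts characteristic of white adipocytes, the fat-storing cells that make up most of the mammary fat pad: Adipoq, Lep, Retn, Cfd, Plin1, Plin4, Cidec, Lipe, Car3 and Pck1. They were chosen by name and matched through their Ensembl identifiers, and all 10 were among the 25006 identifiers counted in each library. The study sequenced RNA of tumors grown from 4T1, a mouse mammary carcinoma line often taken to represent triple-negative disease. Tumor cells were placed in the fat pad of 2 kinds of host and removed within 20 days. NSG mice are immunodeficient, without mature lymphocytes or NK cells. Balb/c mice, the strain in which 4T1 arose, are immunocompetent. The wild-type groups held the parental line (Par) and the line stably expressing vCas9, and the CD95 knockout groups held CRISPR/Cas9 clones 54 and 69, so that each host had a wild-type and a knockout group, with 2 libraries in each of the 4 groups. Values of a pair are given in the order parental and vCas9, or clone 54 and clone 69. The knockout lines were clones and the wild-type lines were not described as clones, and the hosts differ in strain as well as in immune status. Within either pair of differences the parts cannot be told apart. The labels do not say whether libraries came from separate animals, so p-values measure the spread between these libraries only.

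White adipocytes keep triglyceride in a large lipid droplet. Perilipins coat that droplet, Cidec (FSP27) helps droplets fuse and enlarge, and hormone-sensitive lipase, encoded by Lipe, takes part in breaking the stored fat down again. The same cells secrete adiponectin (Adipoq), leptin (Lep), in mice resistin (Retn), and adipsin or complement factor D (Cfd). Car3 encodes carbonic anhydrase 3, which is abundant in fat and also in slow skeletal muscle, and Pck1 encodes the cytosolic phosphoenolpyruvate carboxykinase, used in fat to make glycerol for triglyceride. PPAR-gamma and the C/EBP factors are the best known regulators of this gene programme.

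Promoters of 3 members are shown because these genes encode the hormones adiponectin and leptin and the main droplet coat protein, and all 3 had lower mean levels in Balb/c tumors. All 3 passed the filter on low counts through NSG libraries, where they were high. In wild-type tumors Plin1 and Lep did not pass the edgeR test between hosts (adjusted p = 0.0878 and 0.0802), and the Lep libraries of the hosts overlapped. Each run holds 250 bases before and 50 bases after the RefSeq start in GRCm38.p6, read 5′ to 3′ on the strand of the gene. Capitals mark matches to the C/EBP core TTGCNNAA on either strand. The coordinates are chr16:23146286-23146585 (+) for Adipoq, chr7:79732727-79733026 (-) for Plin1 and chr6:29059971-29060270 (+) for Lep.
Adipoq: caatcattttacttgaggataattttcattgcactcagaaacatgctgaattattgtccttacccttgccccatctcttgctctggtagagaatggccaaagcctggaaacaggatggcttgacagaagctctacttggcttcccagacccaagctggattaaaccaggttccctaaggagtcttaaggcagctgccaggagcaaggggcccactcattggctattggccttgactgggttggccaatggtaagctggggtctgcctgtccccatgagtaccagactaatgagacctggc
Plin1: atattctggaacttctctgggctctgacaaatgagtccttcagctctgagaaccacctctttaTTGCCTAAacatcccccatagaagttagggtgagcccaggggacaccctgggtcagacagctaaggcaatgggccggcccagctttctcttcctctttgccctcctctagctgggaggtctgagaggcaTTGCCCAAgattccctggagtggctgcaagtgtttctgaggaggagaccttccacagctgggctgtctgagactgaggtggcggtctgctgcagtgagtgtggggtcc
Lep: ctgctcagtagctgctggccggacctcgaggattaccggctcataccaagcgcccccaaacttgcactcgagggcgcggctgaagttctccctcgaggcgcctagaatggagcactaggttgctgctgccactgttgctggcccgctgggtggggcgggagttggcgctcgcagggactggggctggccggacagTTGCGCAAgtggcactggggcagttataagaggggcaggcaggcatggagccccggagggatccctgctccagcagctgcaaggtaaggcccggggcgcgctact

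The RefSeq table held 11 promoters of 9 members, and Car3 was not among them. The core occurred in promoters of 3 of these 9 members, namely Lep, Plin1 and Cidec, and in 10.8% of all 32851 promoters of the same length. The match in Lep, at position -55 from the start, was the full palindrome TTGCGCAA, which 0.183% of all promoters held and which itself contains the core. The nuclear receptor motif AGGTCA (in 16.3% of all promoters) and the TATA box TATAAA (in 13.6%), searched on both strands, matched in none of the 11 member promoters. These matches describe letters in a short window and no binding was measured.

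Levels are given as CPM, counts scaled to library totals corrected by TMM factors. Library totals ranged from 8680070 to 19655945 counts, and 3 counts correspond to 0.159 to 0.321 CPM. Every pair of libraries within a group differed by more than sampling noise, with chi-square values per degree of freedom of 18.1 to 115. Fas, the gene encoding CD95, was read in all libraries and its transcript did not verify the labels, with 29.5 and 12.9 CPM in the libraries labelled NSG knockout against 33.9 and 22.6 CPM in NSG wild type, and 27.1 and 33.7 against 51.6 and 46.9 CPM in Balb/c. Its knockout log2 fold change had edgeR adjusted p-values of 0.628 in NSG and 0.225 in Balb/c, so the text speaks of libraries labelled knockout. The epithelial genes Epcam, Krt8 and Krt18, which mark 4T1 tumor cells, were present in all 8 libraries, Krt8 at 156 to 1283 CPM.

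The adipocyte genes were low in every tumor. Only Cfd, Car3 and Lipe reached 20 CPM in any library, and Lep never passed 0.856 CPM. Scaled to the length of the annotated exons, Cfd had the highest level of the members in NSG tumors, at 14.2 ± 4.34 CPM per kilobase in wild type and 37.6 ± 4.14 CPM per kilobase in labelled knockout (SD, n = 2 each). Lipe had the highest in Balb/c tumors, at 3.14 ± 0.448 and 3.33 ± 0.764 CPM per kilobase (SD, n = 2 each). Lep and Plin1 had the lowest length-scaled levels in all 4 groups. In 8 of the 10 genes the NSG labelled-knockout group had the highest mean CPM, the exceptions being Retn, highest in Balb/c wild type, and Lipe, highest in Balb/c labelled knockout. In bulk tumor RNA, fewer adipocytes and less RNA per adipocyte cannot be told apart.

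**Figure D1:**
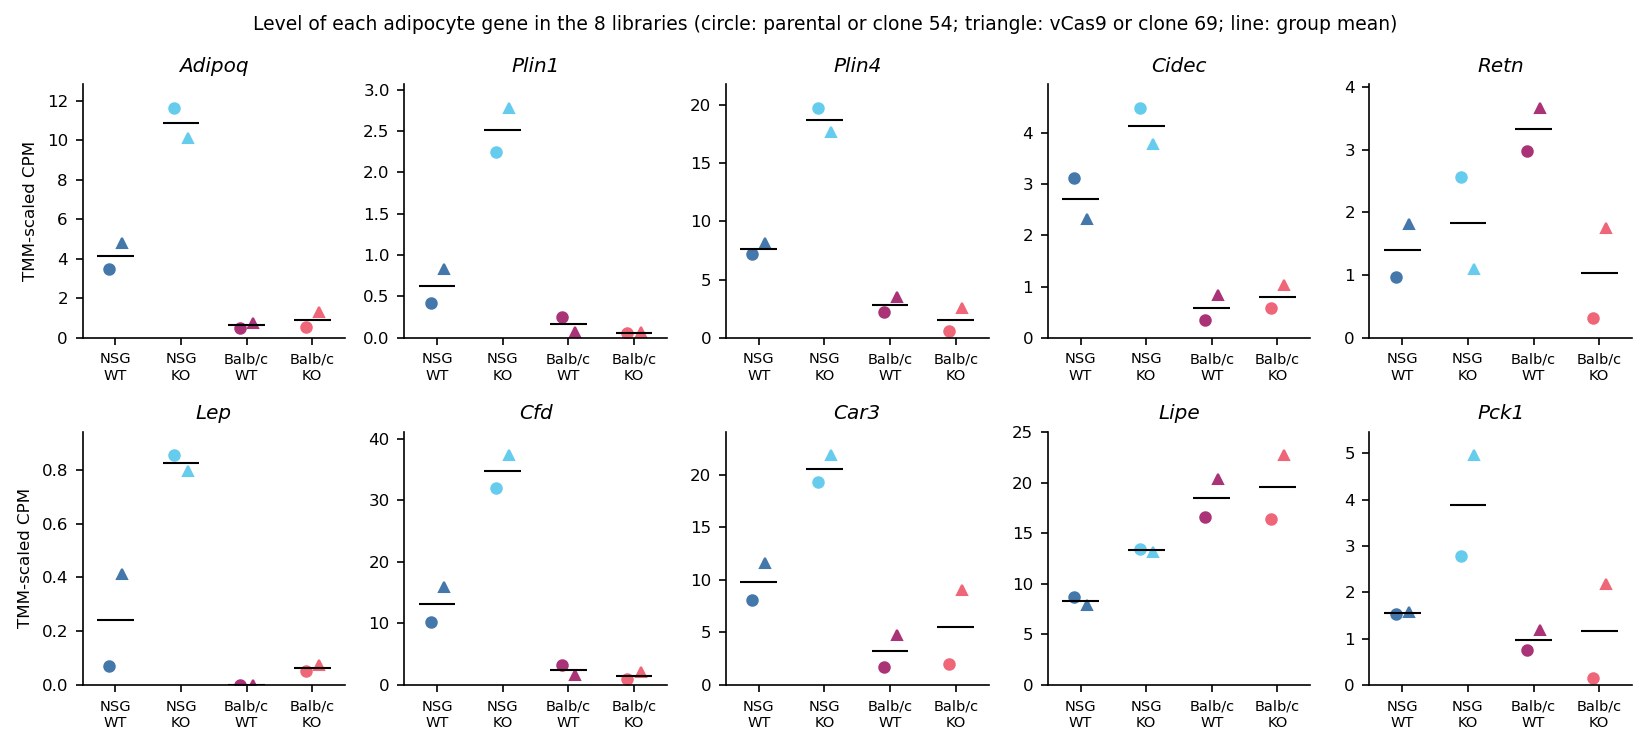
TMM-scaled CPM (vertical axes from 0, a scale of its own per gene) of the 10 adipocyte genes in the 4 groups of 2 libraries. Circles are the parental line or clone 54, triangles the vCas9 line or clone 69, and lines the group means. In 8 of the 10 panels the NSG labelled-knockout mean is the highest, while Lipe is higher in Balb/c and Retn is highest in Balb/c wild type.

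Adiponectin and adipsin transcripts were several-fold lower in Balb/c than in NSG tumors. Adipoq (ENSMUSG00000022878; chromosome 16, 23146536 to 23158028) was at 3.46 and 4.80 CPM in NSG wild type, 11.7 and 10.1 in NSG labelled knockout, 0.510 and 0.762 in Balb/c wild type, and 0.529 and 1.31 in Balb/c labelled knockout. All 4 NSG libraries lay above all 4 Balb/c libraries, and within NSG the labelled knockouts lay above the wild types, while the Balb/c groups overlapped. The Balb/c against NSG log2 fold change of Adipoq was -2.66 (SE 0.50, edgeR adjusted p = 0.00843) in wild-type tumors and -3.59 (SE 0.48, adjusted p = 0.00168) in labelled-knockout tumors. Cfd (ENSMUSG00000061780; chromosome 10, 79890853 to 79892655), whose product is the protease that starts the alternative complement pathway, was at 10.2 and 15.9 CPM in NSG wild type, 32.0 and 37.4 in NSG labelled knockout, 3.23 and 1.66 in Balb/c wild type, and 0.952 and 2.12 in Balb/c labelled knockout. Its groups stood in the same way as those of Adipoq, with the NSG labelled knockouts on top and the Balb/c groups overlapping. In log2 units Cfd fell by 2.43 (SE 0.44, edgeR adjusted p = 0.00793) in wild-type and by 4.53 (SE 0.47, adjusted p = 0.000721) in labelled-knockout tumors, the latter a 23.0-fold difference.

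Leptin was near the limit of detection. Lep (ENSMUSG00000059201; chromosome 6, 29060220 to 29073877) had 1 and 5 counts in NSG wild type, 8 and 8 in NSG labelled knockout, 0 and 0 in Balb/c wild type, and 1 and 1 in Balb/c labelled knockout. Its passage of the filter on low counts came from the NSG labelled-knockout libraries. Against a floor of 3 counts over the group, Lep in wild-type Balb/c tumors was at least 1.98-fold lower than in NSG, and this did not pass the test (edgeR adjusted p = 0.0802). The exact 95% lower limit of that ratio, which also covers the counting error of the 6 NSG counts, was 1.16, and 5 of those 6 counts came from the vCas9 library. In labelled-knockout tumors the ratio of NSG to Balb/c was 13.4, with a counting interval of 3.16 to 121 (95%, exact), and the edgeR adjusted p-value of 0.0361 rose to between 0.089 and 0.127 when any library of these groups was left out. When the libraries of a line grown in both hosts were paired by a block, it was 0.0764, with DESeq2 0.119 and without a filter on low counts 0.0528. Intervals and floors of this kind cover counting error alone, since no molecular identifiers are stated for the reads.

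Retn did not share this pattern. It (ENSMUSG00000012705; chromosome 8, 3655770 to 3660110) was at 0.970 and 1.82 CPM in NSG wild type, 2.57 and 1.09 in NSG labelled knockout, 2.97 and 3.67 in Balb/c wild type, and 0.317 and 1.75 in Balb/c labelled knockout. The Balb/c wild-type libraries were the highest, and the other 3 groups overlapped. The host log2 fold change was 1.26 (SE 0.74, adjusted p from edgeR = 0.219) in wild-type and -0.86 (SE 0.79, adjusted p = 0.437) in labelled-knockout tumors. With only the compared groups in the fit Retn passed in wild-type tumors, higher in Balb/c (1.33, adjusted p = 0.0458). Retnlg, a related gene of neutrophils whose reads could be shared with Retn, stood at 447 and 509 CPM in the Balb/c wild-type libraries against 26.6 to 63.8 CPM in the 4 NSG libraries, and at 124 and 451 CPM in Balb/c labelled knockout. The neutrophil marker list summed to 6235 to 7855 CPM in Balb/c wild type, 549 to 2667 in Balb/c labelled knockout and 1382 to 3263 in the NSG libraries. The part of neutrophils in the Retn values was not tested.

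Plin1 and Plin4, which coat the droplet, were also lower in Balb/c on average. Plin1 (ENSMUSG00000030546; chromosome 7, 79720218 to 79732903), the perilipin that guards the droplet of mature adipocytes, had 6 and 10 counts in NSG wild type, 21 and 28 in NSG labelled knockout, 3 and 1 in Balb/c wild type, and 1 and 1 in Balb/c labelled knockout. All NSG libraries were above all Balb/c libraries on the CPM scale. The ratio of NSG to Balb/c was 3.95 (exact 95% counting interval 1.28 to 16.2) in wild-type tumors, which did not pass (edgeR adjusted p = 0.0878), and 41.2 (interval 10.8 to 350) in labelled-knockout tumors, which passed (adjusted p = 0.00268).

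Plin4 (ENSMUSG00000002831; chromosome 17, 56100591 to 56109803), another perilipin that binds small droplets, was better covered. It was at 7.20 and 8.12 CPM in NSG wild type, 19.8 and 17.7 in NSG labelled knockout, 2.21 and 3.47 in Balb/c wild type, and 0.582 and 2.55 in Balb/c labelled knockout. The hosts did not overlap, and the Balb/c groups did. Its host log2 fold change was -1.42 (SE 0.54, adjusted p from edgeR = 0.0782) in wild-type and -3.62 (SE 0.58, adjusted p = 0.00344) in labelled-knockout tumors. In wild-type tumors Plin4 passed with DESeq2 (adjusted p = 0.0488), without a filter on low counts (0.0465) and with the compared groups alone (0.0161). Plin4 overlaps Hdgfl2 on the opposite strand, and that gene was at 29.8 to 45.9 CPM across the libraries with edgeR adjusted p-values of 0.493 and 0.0661 for the same host comparisons.

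Cidec (ENSMUSG00000030278; chromosome 6, 113424634 to 113435760) was at 3.12 and 2.32 CPM in NSG wild type, 4.49 and 3.78 in NSG labelled knockout, 0.340 and 0.832 in Balb/c wild type, and 0.582 and 1.02 in Balb/c labelled knockout. Again the hosts were fully apart, by log2 fold changes of -2.17 (SE 0.53, edgeR adjusted p = 0.0206) in wild-type and -2.38 (SE 0.51, adjusted p = 0.011) in labelled-knockout tumors. With the cell line as a block the wild-type value was -2.22 with an adjusted p-value of 0.0721, and the wild-type call was also lost without any of the 4 libraries (adjusted p-values of 0.0507 to 0.118).

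Lipe, in contrast, was higher in Balb/c. The gene (ENSMUSG00000003123; chromosome 7, 25379527 to 25398710) was at 8.66 and 7.95 CPM in NSG wild type, 13.5 and 13.1 in NSG labelled knockout, 16.6 and 20.4 in Balb/c wild type, and 16.4 and 22.8 in Balb/c labelled knockout. Every Balb/c library lay above every NSG library. The log2 fold change was 1.16 (SE 0.23, adjusted p from edgeR = 0.0111) in wild-type and 0.56 (SE 0.23, adjusted p = 0.104) in labelled-knockout tumors. The wild-type call was lost without NSG parental (adjusted p = 0.0706), NSG vCas9 (0.0773) or Balb/c vCas9 (0.0611), and the labelled-knockout value passed without Balb/c clone 54 (0.75, 0.0438). An antisense transcript, 4732471J01Rik, covers Lipe on the opposite strand, and the strand setting of the counting is not stated. It was at 1.18 to 1.79 CPM in NSG and 1.27 to 3.31 CPM in Balb/c libraries, well below Lipe, and its part in the Lipe counts was not tested.

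Car3 and Pck1 were lower in Balb/c on average, with a wide spread between the Balb/c libraries. Car3 (ENSMUSG00000027559; chromosome 3, 14863512 to 14872523) was at 8.03 and 11.6 CPM in NSG wild type, 19.3 and 21.9 in NSG labelled knockout, 1.70 and 4.78 in Balb/c wild type, and 2.01 and 9.04 in Balb/c labelled knockout. The clone 69 library in Balb/c thus reached the level of the NSG parental library. Car3 passed in neither genotype alone (log2 fold change -1.58, SE 0.69, edgeR adjusted p = 0.112 in wild type, and -1.91, SE 0.67, adjusted p = 0.0638 in labelled knockout). With only the compared groups in the fit, the wild-type value was -1.51 and passed (adjusted p = 0.0448). In labelled-knockout tumors Car3 passed under 5 of the 10 alternatives that kept every library of both groups: DESeq2 (adjusted p = 0.0131), no filter on low counts (0.0147), limma-voom (0.0195), total counts (0.0432) and the cell line as a block (-2.22, 0.0495). Pck1 (ENSMUSG00000027513; chromosome 2, 173153048 to 173159273) was at 1.52 and 1.57 CPM in NSG wild type, 2.78 and 4.97 in NSG labelled knockout, 0.764 and 1.18 in Balb/c wild type, and 0.159 and 2.19 in Balb/c labelled knockout. Its host log2 fold changes were -0.66 (SE 0.92, edgeR adjusted p = 0.602) and -1.78 (SE 0.89, adjusted p = 0.165). Without the clone 69 library the latter became -4.53 with an adjusted p-value of 0.00547, and Car3 became -3.34 with 0.00711.

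Comparing the hosts addresses what changes between tumors of the same lines in immunodeficient and immunocompetent mice. In wild-type tumors Adipoq, Cfd and Cidec fell and Lipe rose in Balb/c, and in labelled-knockout tumors Adipoq, Cfd, Plin1, Plin4, Cidec and Lep fell, at an edgeR adjusted p-value under 0.05 over all 15310 tested genes. Adipoq, Plin1 and Lep reached the level of the low-count filter in fewer than 2 of the 4 Balb/c libraries, so they entered the test through NSG libraries, where they were high, and add no support to a count. Of the 7 other members 2 fell and 1 rose in wild-type tumors, where 16.2% of all genes fell and 15.3% rose (31.5% in either direction). In labelled-knockout tumors 3 of the 7 fell and 0 rose, where 15.4% of all genes fell and 15.7% rose (31.1%). Over both genotypes 4 of the 7 fell and 1 rose, where 23.0% fell and 22.0% rose (45.0%), and Retn and Pck1 did not pass. Cidec and Pck1 reached the filter level in exactly 2 Balb/c libraries. Leaving out a library reduced the 4 wild-type calls to 2 without NSG parental, 0 without NSG vCas9, 2 without Balb/c parental and 1 without Balb/c vCas9. Over all genes the same fits called 858, 1270, 1289 and 1482 genes, or 5.45% to 9.44%, in place of 4825. Adipoq was lost without NSG vCas9 (adjusted p = 0.0536) or Balb/c parental (0.0628), and Cfd without NSG vCas9 (0.0537) or Balb/c vCas9 (0.0565). Over both genotypes the calls with Adipoq, Plin1 and Lep were 8 of 10. Lep was lost without NSG vCas9 (adjusted p = 0.0912), and Car3 without NSG vCas9 (0.0677), NSG clone 69 (0.0524) or Balb/c parental (0.0589), while Pck1 passed without Balb/c clone 69 (-2.59, adjusted p = 0.00375). The median log2 fold change of the 7 members without Adipoq, Plin1 and Lep was -1.42 in wild-type and -1.91 in labelled-knockout tumors, beside -0.08 and 0.02 over all genes. Among them, both Balb/c wild-type libraries were below both NSG wild-type libraries for 5 (41.0% of all genes) and above for 2 (35.4%), and in labelled-knockout tumors these numbers were 5 (31.9%) and 1 (32.4%). All 4 Balb/c libraries were below all 4 NSG libraries for 3 of the 7, an arrangement found in 17.5% of all tested genes, and above them for Lipe (16.1%).

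**Figure D2:**
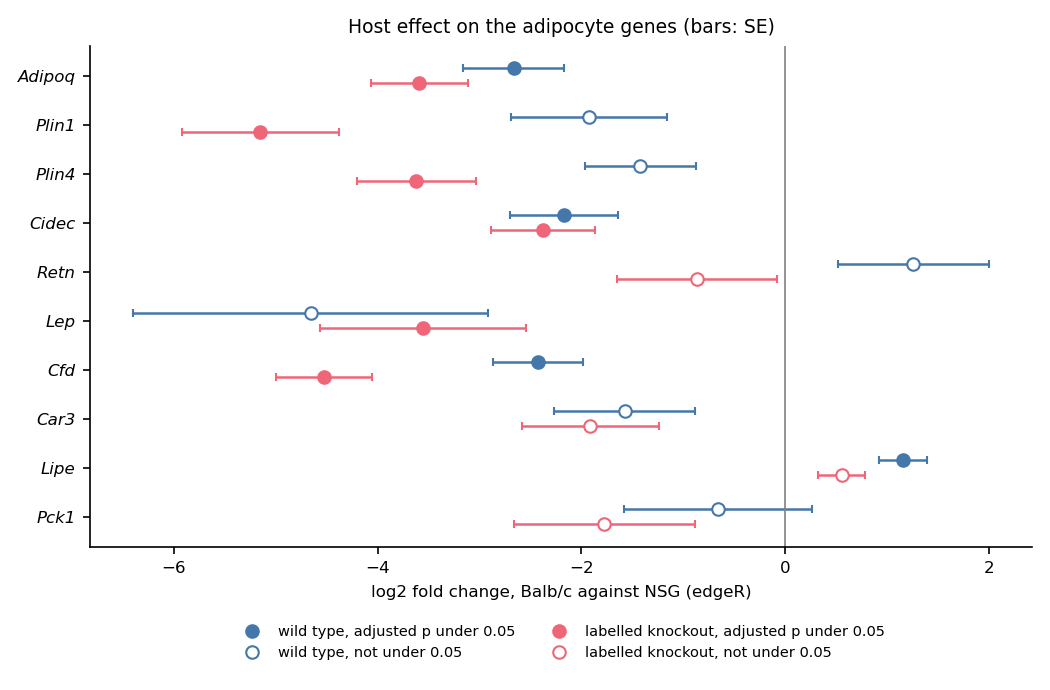
Log2 fold change of Balb/c against NSG (horizontal axis, edgeR) for the 10 adipocyte genes, in wild-type tumors (blue) and labelled-knockout tumors (red), with bars for 1 SE and filled points for adjusted p-values under 0.05. Points lie left of 0 for 8 genes in wild-type and 9 in labelled-knockout tumors, and Lipe lies to the right in both. Lep in wild-type tumors rests on 0 counts in Balb/c, so its fitted position is not a measured size.

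Within NSG mice the adipocyte genes were higher in the labelled knockouts, without passing the test over all genes. For 7 of the 8 members other than Lep and Plin1 both labelled-knockout libraries lay above both wild-type libraries, the exception being Retn, and this arrangement was found in 26.7% of all tested genes. Adipoq averaged 4.13 ± 0.949 CPM in wild type and 10.9 ± 1.07 CPM in labelled knockout (SD, n = 2 each), which is 1.40 in log2 units (SE 0.42, edgeR adjusted p = 0.255). Cfd averaged 13.1 ± 4.00 and 34.7 ± 3.82 CPM (SD, n = 2 each), which is 1.41 in log2 units (SE 0.40, adjusted p = 0.244). Plin1 had the largest fitted ratio of the 10, 4.05-fold (log2 fold change 2.02, SE 0.59, adjusted p = 0.25), and Lipe was 1.60-fold higher (0.68, SE 0.24, adjusted p = 0.294). The median log2 fold change of the 8 members other than Lep and Plin1 was 1.18, beside 0.01 over all genes. By edgeR 0 of 10 members passed, where 0.0131% of all genes did. At an unadjusted p-value under 0.05 were 5 members and 14.0% of all genes. Plin1 is among these 5 and adds no support to the count. It reached the filter level in both NSG labelled-knockout libraries, in 1 NSG wild-type library and in no Balb/c library. DESeq2 called 1 member, Cfd (adjusted p = 0.0474), among 339 genes, and limma-voom 0. Leaving out any of the 4 libraries left 0 members past the threshold and a log2 fold change above 0 for every member but Retn.

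In Balb/c mice no adipocyte gene passed the test between labelled knockout and wild type, and the clones differed widely. By edgeR 0 of 10 members passed, where 0.176% of all genes did, with 0 members and 30.9% of all genes at an unadjusted p-value under 0.05, and DESeq2 and limma-voom also called 0 members, where they called 2161 and 19 genes in all, against 27 by edgeR. Leaving Lep aside, with 2 counts against 0, 5 members had log2 fold changes above 0 and 4 below, with a median of 0.08 beside 0.06 over all genes. Retn had the lowest value, -1.73 (SE 0.76, adjusted p = 0.166). Lep and Plin1 had 1 count in each of the Balb/c clone libraries, and the other 8 members were all higher on the CPM scale in clone 69 than in clone 54, as were 48.6% of all tested genes. Without the clone 69 library Plin4 passed at -2.27 (edgeR adjusted p = 0.0141) and Retn at -3.34 (adjusted p = 0.024), both lower in the labelled knockout, in a fit that called 24.8% of all genes. In the same pair of libraries the skeletal muscle list went from 4.50 CPM in clone 54 to 45.1 CPM in clone 69, and the tumor epithelium list from 592 to 2984 CPM. The macrophage list went the other way, from 18090 to 8556 CPM. The part of these cell types in the clone difference was not tested.

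**Figure D3:**
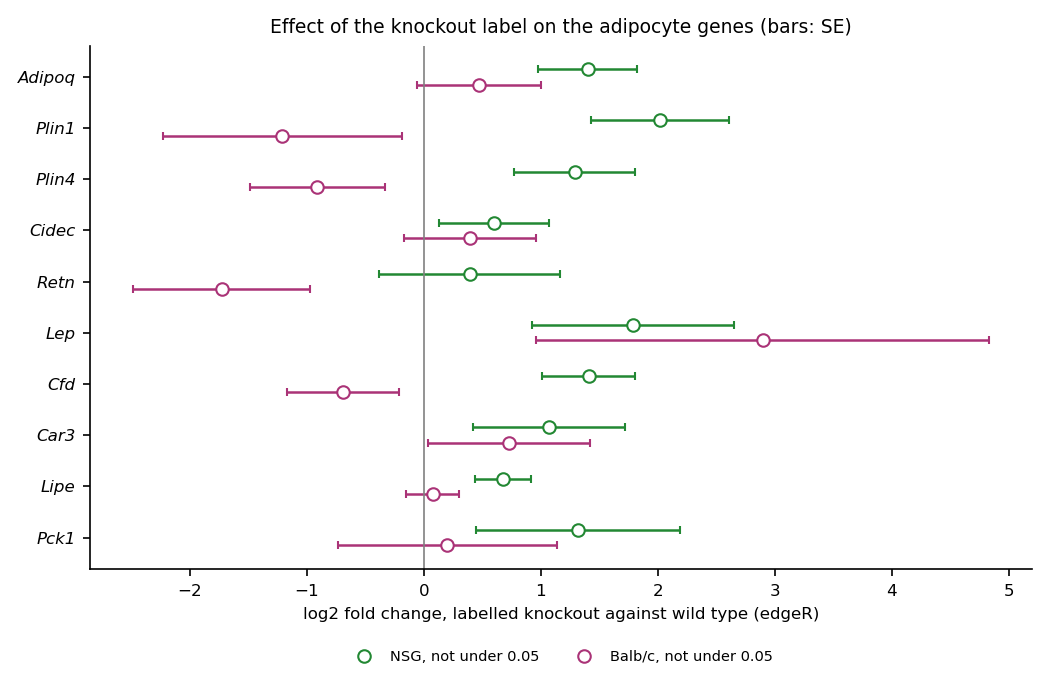
Log2 fold change of labelled knockout against wild type (horizontal axis, edgeR) for the 10 adipocyte genes in NSG (green) and Balb/c (purple) tumors, with bars for 1 SE. No point is filled because no adjusted p-value was under 0.05. All 10 NSG points lie right of 0, while the Balb/c points lie on either side, and Lep in Balb/c rests on 2 counts against 0.

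The difference between these knockout effects was tested directly. By edgeR 0 of 10 members passed, where 0.00% of all genes did. At an unadjusted p-value under 0.05 were 3 members (Cfd, Plin4 and Plin1) and 22.5% of all genes. Plin1 entered the test through NSG libraries, where it was high, and adds no support to that count. Leaving Adipoq, Plin1 and Lep aside, the knockout effect was more negative in Balb/c than in NSG for 7 of 7 members, as it was for 48.5% of all genes, with a median difference of -1.12 beside 0.03 over all genes. Cfd differed by -2.10 (SE 0.62, edgeR adjusted p = 0.128) and Plin4 by -2.20 (SE 0.78, adjusted p = 0.163). DESeq2 called Cfd (-2.17, adjusted p = 0.0216) among 968 genes, and limma-voom called 0 members. Without the Balb/c clone 69 library 4 members passed by edgeR, namely Plin4 (-3.56, adjusted p = 0.0105), Cfd (-2.73, 0.0301), Pck1 (-3.87, 0.0341) and Retn (-3.74, 0.0429), in a fit that called 15.1% of all genes. Over both hosts together the knockout label gave 0 calls among the members (0.00% of all genes), with 1 member, Adipoq, at an unadjusted p-value under 0.05 (log2 fold change 0.94, SE 0.34, adjusted p = 0.163), beside 23.9% of all genes. DESeq2 and limma-voom also called 0 members, where they called 7.90% and 0.0261% of all genes.

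Among 10 regulators of the adipocyte programme, 9 could be tested, and 3 were called in wild-type and 5 in labelled-knockout tumors. Over all genes 31.5% and 31.1% were called. In wild-type tumors Cebpb (1.17) and Cebpd rose in Balb/c and Mlxipl fell (-2.76, as log2 fold changes). Mlxipl was at 2.08 and 3.15 CPM in NSG wild type and at most 0.485 CPM in the other groups, under the filter level of 0.747 CPM. It entered the test through NSG wild type, where it was high, and adds no support to the count. In labelled-knockout tumors 4 rose, with Cebpa (2.06) and Pparg (1.61) first, and Ebf1 fell (-1.34). Pparg, the master regulator of fat cells, was at 3.95 and 4.39 CPM in NSG wild type, 5.03 and 3.08 in NSG labelled knockout, 3.48 and 6.93 in Balb/c wild type, and 10.8 and 14.0 in Balb/c labelled knockout. It was thus highest in a group where Adipoq, Cfd, Plin1 and Plin4 were low. The median log2 fold change of the tested regulators was -0.13 in wild-type and 0.52 in labelled-knockout tumors, beside -0.08 and 0.02 over all genes.

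Of 15 other lipid droplet and lipolysis genes, 12 were tested. In wild-type tumors G0s2 (2.14), an inhibitor of the triglyceride lipase, and Pde3b (1.60) rose in Balb/c and Plin3 fell (-0.78), and in labelled-knockout tumors 3 rose, with Aqp7 (2.84) and Pde3b (2.77) first, and 0 fell, with medians over the list of 0.08 and 0.52. For both lists the 3 wild-type calls are a share near that of all genes (31.5%). The 3 of 12 called in labelled-knockout tumors stand beside 31.1% of all genes in either direction and 15.7% that rose. Plin2, the perilipin of droplets in most cell types, was at 721 and 712 CPM in NSG wild type, 351 and 213 in NSG labelled knockout, 594 and 622 in Balb/c wild type, and 473 and 472 in Balb/c labelled knockout. Plin2 was lowest in the group where Plin1 and Plin4 were highest, and its knockout log2 fold change in NSG was -1.35 (SE 0.25, edgeR adjusted p = 0.156). Pnpla2, the adipose triglyceride lipase that acts before hormone-sensitive lipase, was at 28.9 to 38.7 CPM in NSG and 40.8 to 60.9 CPM in Balb/c libraries and passed over both genotypes (0.63, SE 0.16, adjusted p = 0.0161), the same direction as Lipe.

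All 20 genes of fatty acid uptake and triglyceride synthesis were tested. In wild-type tumors 1 rose in Balb/c (Acsl1, 0.66) and 4 fell, with Slc27a1 (-1.62) and Cd36 (-1.56) first, and in labelled-knockout tumors 4 rose, with Cd36 (1.44) and Fabp5 (1.30) first, and 5 fell, with Elovl6 (-1.64) and Fasn (-1.59) first. The 5 of 20 called in wild-type and 9 of 20 in labelled-knockout tumors stand beside 31.5% and 31.1% of all genes, and the medians of the list were -0.34 and 0.29. Cd36, a fatty acid translocase of fat cells, macrophages and endothelium, was at 204 and 163 CPM in NSG wild type, 141 and 86.9 in NSG labelled knockout, 49.4 and 75.1 in Balb/c wild type, and 285 and 332 in Balb/c labelled knockout. It was the only gene of the 6 adipocyte-related lists called for the knockout label within a host, with a log2 fold change of 2.31 in Balb/c (SE 0.30, edgeR adjusted p = 0.045). That call was lost in 4 of 13 alternatives, with the compared groups alone (adjusted p = 0.182) and without Balb/c parental (0.302), Balb/c vCas9 (0.0627) or Balb/c clone 54 (0.0879), and the log2 fold change stayed between 2.04 and 2.56. Fabp4, the fatty acid carrier of fat cells that macrophages and endothelium also make, was at 87.4 to 151 CPM in NSG, 34.3 and 81.4 in Balb/c wild type, and 198 and 263 in Balb/c labelled knockout. Lpl, the lipoprotein lipase, was at 37.9 and 55.1 CPM in NSG wild type, 105 and 98.3 in NSG labelled knockout, 48.2 and 51.3 in Balb/c wild type, and 208 and 108 in Balb/c labelled knockout. Fabp4, Cd36, Lpl and Pparg thus all had their highest group mean in Balb/c labelled-knockout tumors, where Adipoq, Cfd, Plin1, Plin4 and Cidec had fallen against NSG. The macrophage list summed to 18090 and 8556 CPM in that group, against 3782 to 6774 CPM in the 6 other libraries. Of its 12 genes, 2 rose and 3 fell in Balb/c in wild-type tumors, where 15.3% and 16.2% of all genes did, so the wild-type counts are near those shares. In labelled-knockout tumors 10 rose and 0 fell, where 15.7% and 15.4% of all genes did. Marco, among those that fell in wild-type tumors, was at 4.85 and 3.31 CPM in NSG wild type and at most 0.970 CPM in the other groups. It entered the test through NSG wild type, where it was high, and adds no support to the wild-type count. The part of macrophages in these values was not tested.

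**Figure D4:**
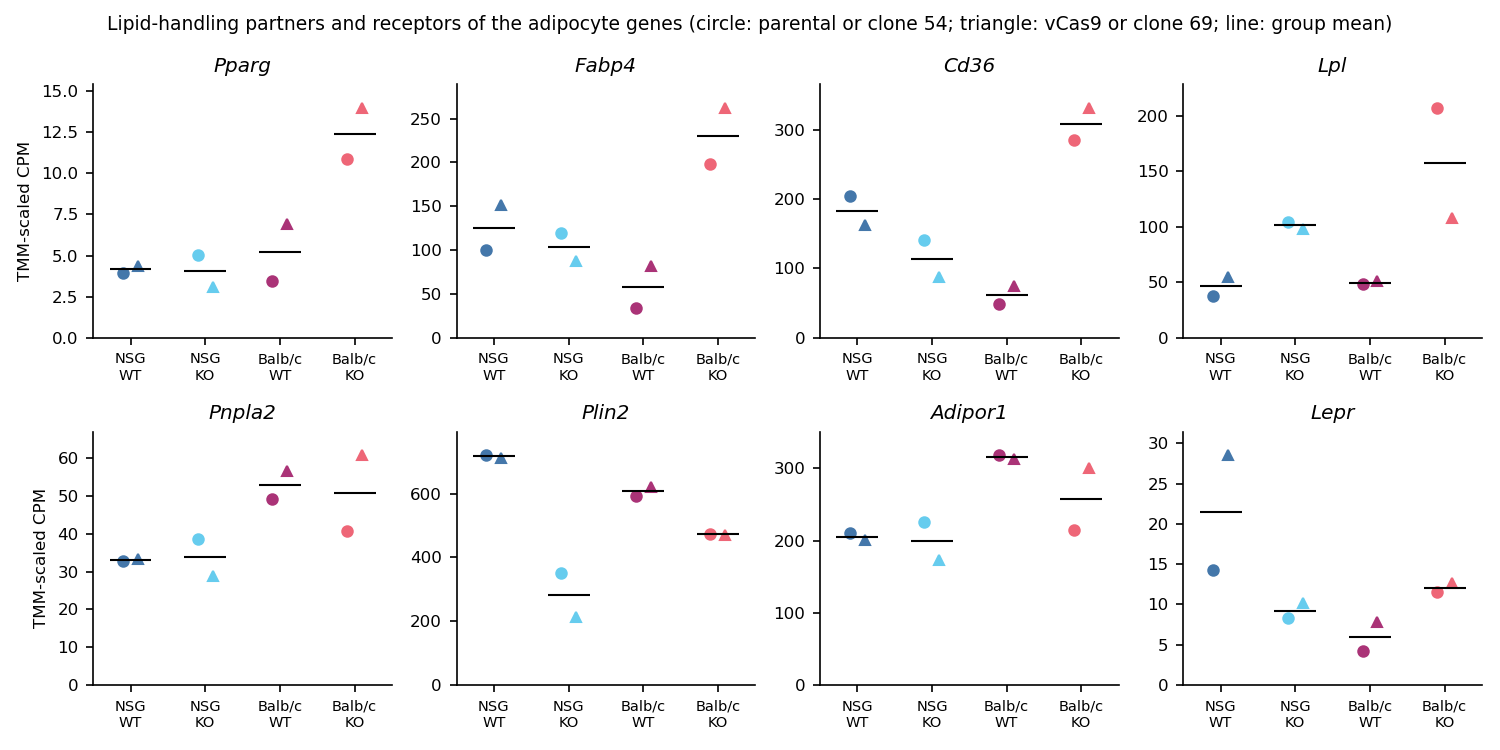
TMM-scaled CPM (vertical axes from 0, a scale of its own per gene) of the regulator Pparg, lipid handling genes and hormone receptors in the 4 groups, with symbols as for the adipocyte genes. Pparg, Fabp4, Cd36 and Lpl have their highest means in Balb/c labelled knockout, and Plin2 has its lowest in NSG labelled knockout.

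Of 15 adipocyte surface, insulin response and other secreted genes, 14 were tested. In wild-type tumors 4 rose in Balb/c, with Retnla (5.51) and Adora1 (2.44) first, and 3 fell, with Apln (-2.44) and Angptl4 (-1.60) first, while in labelled-knockout tumors Retnla (7.53) and Irs2 (1.49) rose and 4 fell, with Apln (-2.93) and Rbp4 (-2.16) first. The 7 and 6 of 14 called stand beside the same shares, and the medians of the list were -0.13 and -0.81. Retnla, a resistin relative also made by alternatively activated macrophages, was at 1.49 to 8.03 CPM in NSG and 94.7 to 986 CPM in Balb/c libraries. Of 6 receptors listed for the members' hormones and for complement (C3ar1), Cap1 (0.73) rose in wild-type Balb/c tumors while Lepr (-1.83) and Cdh13 (-1.36) fell. In labelled-knockout tumors C3ar1 (2.10) and Cap1 (0.91) rose. Over all genes 31.5% were called in wild-type and 31.1% in labelled-knockout tumors. The 2 of 6 called in labelled-knockout tumors are near that share. Lepr, the leptin receptor, was at 14.3 and 28.6 CPM in NSG wild type, 8.35 and 10.1 in NSG labelled knockout, 4.16 and 7.76 in Balb/c wild type, and 11.6 and 12.6 in Balb/c labelled knockout. The adiponectin receptor Adipor1 was higher in Balb/c over both genotypes by 0.50 (SE 0.15, edgeR adjusted p = 0.0319), and Adipor2 did not pass (0.23, SE 0.11, adjusted p = 0.119). Of 8 brown adipocyte genes, 5 were tested, and Ucp1 fell in wild-type (-3.08) and Dio2 in labelled-knockout tumors (-3.23). This 1 of 5 in each comparison is near the 16.2% and 15.4% of all genes that fell. The genes named from these lists as risen or fallen within a genotype had edgeR adjusted p-values between 0.000439 and 0.0404. In NSG 0 genes of these lists passed for the knockout label.

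Marker lists of other cells that a fat pad tumor could hold differed in direction. The adipose progenitor and fibroblast list summed to 1793 to 2534 CPM in NSG wild type, 3036 to 4452 in NSG labelled knockout, 1251 to 1969 in Balb/c wild type, and 982 to 1678 in Balb/c labelled knockout, with none of its 12 genes at 0 in both libraries of a group. Of these 12 genes, 2 fell in Balb/c in wild-type tumors and 10 in labelled-knockout tumors, with 0 rising in either and medians of -0.46 and -1.49, where 16.2% and 15.4% of all genes fell. The wild-type count is near that share. The endothelial list summed to 264 to 591 CPM in NSG, 194 to 290 in Balb/c wild type and 530 to 598 in Balb/c labelled knockout. Of its 10 genes 3 fell in wild-type tumors (median -1.23), where 16.2% of all genes fell. In labelled-knockout tumors 1 rose (median -0.06), where 15.7% of all genes rose. The labelled-knockout count is near that share. Skeletal muscle genes, listed because muscle lies near the fat pad and expresses Car3, summed to 10.7 to 30.4 CPM in NSG. In Balb/c they were at 7.73 (parental), 49.5 (vCas9), 4.50 (clone 54) and 45.1 CPM (clone 69), and 0 of the 10 tested passed in either host comparison (medians 1.15 and 0.09). Car3, Adipoq, Plin4, Cidec, Retn, Lipe and Pck1 were all higher in the vCas9 and clone 69 libraries of Balb/c than in their partners, while Cfd and Plin1 were lower in vCas9 than in parental, and 52.6% of all tested genes were higher in vCas9 in that pair. The normal mammary luminal and milk list summed to 31.2 to 45.5 CPM in NSG wild type, 128 to 394 in NSG labelled knockout, 89.3 to 296 in Balb/c wild type, and 89.7 to 665 in Balb/c labelled knockout. Of its 6 tested genes 2 rose and 0 fell in Balb/c in wild-type tumors (median 2.47), where 15.3% and 16.2% of all genes did. In labelled-knockout tumors 0 were called. The parental library of Balb/c held 14.4 CPM of Csn1s1 and 19.9 CPM of Csn2, and its vCas9 partner 0.832 and 1.94 CPM. Neither gene reached the filter level of 0.747 CPM in any other library. Csn1s1 and Csn2 thus entered the test through Balb/c wild type, where they were high, and add no support to the count. The tumor epithelium list summed to 1077 to 1348 CPM in NSG wild type, 1993 to 2602 in NSG labelled knockout, 699 to 1635 in Balb/c wild type, and 592 to 2984 in Balb/c labelled knockout. The Schwann cell and nerve list summed to 194 to 217 CPM in NSG wild type and 128 to 190 in NSG labelled knockout. In Balb/c it summed to 111 to 122 CPM in wild type and 149 to 185 in labelled knockout. Of its 6 genes 1 rose and 2 fell in wild-type tumors (median -1.57), and 1 rose and 0 fell in labelled-knockout tumors (median -0.51). Over both genotypes 1 rose and 4 fell, where 22.0% and 23.0% of all genes did. The part of these cell types in the adipocyte results was not tested.

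**Figure D5:**
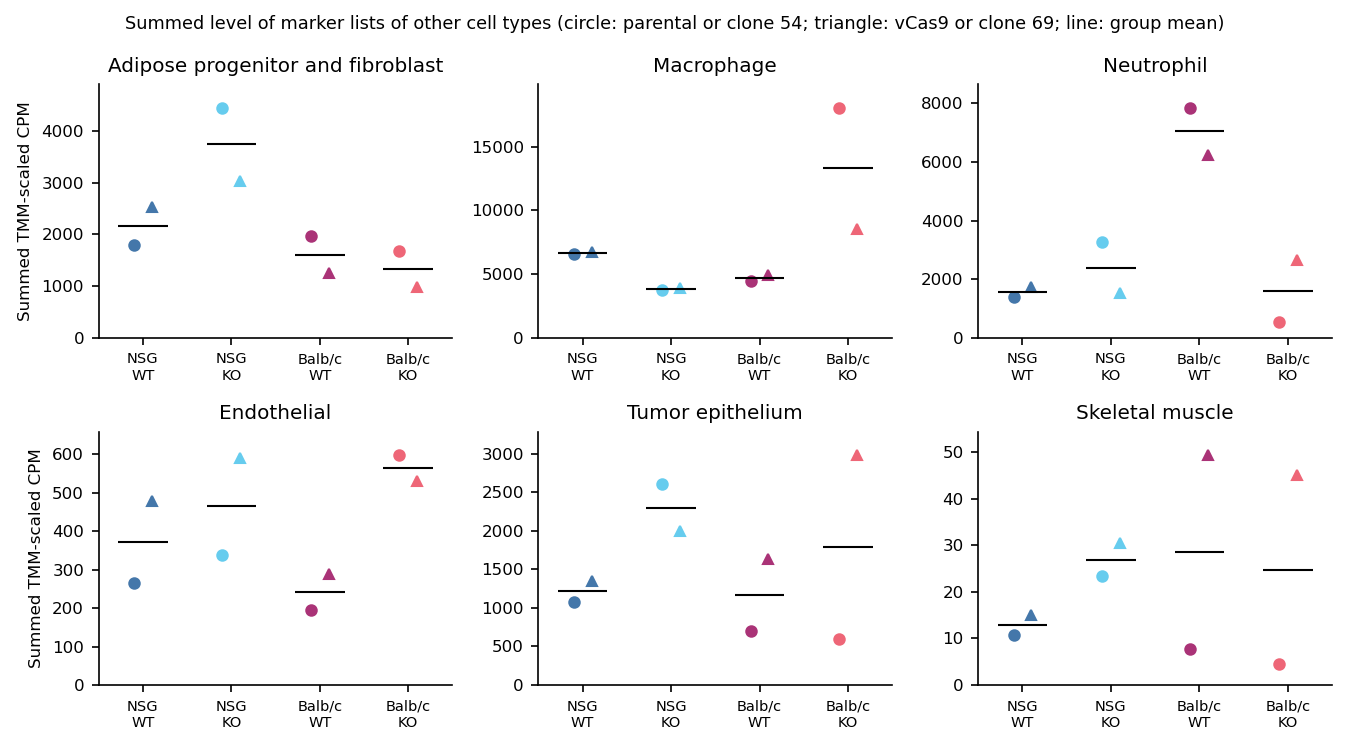
Summed TMM-scaled CPM of marker lists of other cell types (vertical axes from 0, a scale of its own per list) in the 4 groups, with symbols as for the adipocyte genes. Progenitor and fibroblast genes have their highest values in NSG labelled knockout, macrophage genes in Balb/c labelled knockout and neutrophil genes in Balb/c wild type.

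The genes whose levels over the 8 libraries were closest to the mean profile of the members were Dmpk, Igsf9, Plekha7, Npr3, Fat1, Col8a1, Gpc4, Plxna3, Fzd6 and Erbb2, with root mean square differences of 0.239 to 0.347 on the log2 scale among 11436 candidates. The members themselves differed from that profile by 0.469 (Car3) to 1.49 (Lipe). All profiles share the same libraries and hosts, and the likeness is a description.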

How the data were processed

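Raw gene counts were deposited by the authors for 8 libraries of total RNA, 1 file per library. The submitters' processing notes name cutadapt 1.13, STAR, HTSeq 0.6.1p1 and DESeq2 and the builds mm10 and hg19, without roles. The strand setting and annotation release are not given in the sources used here. Symbols and coordinates came from GENCODE M21 (GRCm38). Genes passing edgeR's filterByExpr (15310) were scaled by TMM and fitted with 4 group means by edgeR 4.0.16 in R 4.3.3 (quasi-likelihood test, Benjamini-Hochberg adjustment over all genes tested, threshold 0.05, 4 residual degrees of freedom). SE is the absolute log2 fold change over the square root of F. The fit was tested on simulated data, and no result given here rests on that test. Fold changes are on the log2 scale. The members and lists were chosen with earlier results of these data known. All members are named, and from each related list up to 2 genes per direction and comparison with the largest change, plus Pparg, Fabp4, Cd36, Lpl, Pnpla2, Plin2, Adipor1, Adipor2 and Lepr.

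Each line was grown in both hosts per the labels, which pairs the libraries by line. The differences between the lines of a genotype correlated between hosts at 0.08 (wild type) and -0.32 (labelled knockout) over 15310 genes. Alternatives were other scalings and filters, DESeq2 1.42.0, limma-voom (limma 3.58.1), the line as a block, the compared groups alone and leaving out each library. Another, chosen after seeing the data, was omission of Mir6236, which held 0.110% to 5.79% of counts. Leaving out a library left its group without a replicate, so the spread in those fits came from the other groups.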

Additional observations from a re-analysis of the deposited data

How the results depend on the processing

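Each host comparison within a genotype was repeated under 14 alternatives, and no member that could be fitted changed direction. All 10 members could be fitted in 12 of them for wild-type and 13 for labelled-knockout tumors. Of 1020 values of single members under an alternative, 947 kept their direction and side of the threshold, 23 newly passed, 23 no longer passed and 27 reversed. The 4 calls in wild-type tumors became 7 with the compared groups alone, where 46.7% of all genes were called in place of 31.5%. Plin1 and Lep did not pass the filter in that fit, where 6 members lay below and 2 above 0. Adipoq and Cidec reached the filter level in both NSG wild-type libraries and in 0 and 1 of the Balb/c wild-type libraries. They entered that fit through NSG wild type, where they were high, and add no support to the count. Fits without a library left a group without a replicate, so their calls are not counted here. The changes without Balb/c clone 69 in the knockout label in Balb/c and in the difference between hosts are given above. The knockout label in NSG gave 1 call with DESeq2, and the difference between hosts gave 1 with DESeq2 and 1 without a filter on low counts.

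With the line as a replicate block, 3 members were called in wild-type tumors (13.5% of all genes), 6 in labelled-knockout tumors (18.8%), 8 over both genotypes (33.7%) and 0 for the difference (0.00%), and no call changed beside those of Cidec, Lep and Car3 given above. The calls include Adipoq in wild-type tumors, Adipoq and Plin1 in labelled-knockout tumors, and Adipoq, Plin1 and Lep over both genotypes. These genes entered the test through NSG libraries, where they were high, and add no support to the counts. No block was possible for the knockout label within a host, since each line has 1 CD95 status.

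For the knockout label in Balb/c, Lipe was -0.018 with RLE factors, -0.012 with DESeq2 and -0.013 without Mir6236, and Pck1 was -0.83 with limma-voom. Over both hosts Plin4 was -0.0066 with limma-voom, and the difference between hosts of Lep was -0.80 with limma-voom. Without a library, ranges that crossed 0 were, for Retn, -0.61 to 0.63 (host, both genotypes) and -0.34 to 0.90 (knockout label in NSG). In Balb/c they were -0.073 to 1.11 for Cidec, -0.17 to 0.19 for Lipe, -2.55 to 1.05 for Pck1, -0.27 to 0.92 for Adipoq and -0.70 to 1.59 for Car3. Over both hosts they were -0.49 to 0.52 for Plin4 and -0.62 to 1.19 for Pck1, and for the difference between hosts -0.67 to 0.51 for Cidec, -0.49 to 1.91 for Lep and -1.77 to 0.52 for Car3. The cause was not tested.

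Over all genes, calls for the knockout label rose from 2 to 339 in NSG and from 27 to 2161 in Balb/c with DESeq2, and for the difference from 0 to 968. Host calls fell from 4825 to 2073 (wild type) and from 4757 to 2878 (labelled knockout) under the block. Scaling by total counts shifted the median over all genes (log2) from -0.08 to -0.24 in wild-type and from 0.02 to -0.17 in labelled-knockout tumors, and moved the higher calls in Balb/c, as a share of all calls, from 48.6% to 36.5% and from 50.5% to 37.3%. In wild-type tumors that share was 57.9% with RLE factors, 58.7% without Mir6236 and 52.4% to 73.2% without a library. Depth limits Lep and Plin1, which had at most 8 and 28 counts in a library.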
